A study of Mus musculus with 20 samples.

Results

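Described here are 10 cytochrome P450 genes of mouse kidney (Cyp2e1, Cyp2j5, Cyp2j11, Cyp2j13, Cyp2a4, Cyp2d9, Cyp2d10, Cyp2d22, Cyp2d26 and Cyp7b1), out of 24411 genes in the count table. They were taken by symbol, with earlier results of these data known. Counts of these genes called are therefore set beside the shares over all genes as a description. Cyp2e1 was chosen by its counts in these mice, because its response to loss of Pkd2 differed between XY and XX animals, so its values across genotype and sex are a description and carry no test. Cyp2d10 had at most 7 counts in any mouse and did not pass the filter on low counts, which leaves 8 genes tested between groups.

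Whole kidneys of 20 mice were sequenced, with 5 mice in each combination of sex and genotype, drawn from 3 litters (named A, B and C below). Litters A, B and C gave 3, 1 and 1 male controls and 2, 2 and 1 male mutants. They gave 1, 3 and 1 female controls and 1, 3 and 1 female mutants. Every mouse was Pkd2 fl/fl on C57BL/6, and every mouse was given doxycycline (DOX) at 50 mg/kg into the peritoneum daily from postnatal day (P) 27 to P29, with kidneys taken at P125. Mutants also carried Pax8 rtTA and TetO Cre, so that DOX switched on Cre recombinase, and with it deletion of Pkd2, where the Pax8 promoter is active, which is the tubule epithelium. Controls were littermates that lacked Pax8 rtTA or TetO Cre, and kidney cells outside the tubules were not targeted. Kidney weight as a percent of body weight (KBW) was 0.599% to 0.896% in male controls, 1.22% to 2.15% in male mutants, 0.555% to 0.672% in female controls and 0.836% to 1.46% in female mutants.

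Cytochromes P450 are heme enzymes of the endoplasmic reticulum that insert an oxygen atom into lipids, steroids and foreign compounds, using electrons handed on by cytochrome P450 reductase. In mouse kidney they are found mainly in the proximal tubule, and several are known for large differences between the sexes. Relatives with near-identical sequences often lie side by side in gene clusters.

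Libraries held 11307741 to 19324073 counts, with a median of 15813304.5. Levels are given as CPM, counts scaled to the size and composition of each library. Pkd2 stood at 250.4 to 332 CPM in male controls and 109.7 to 133 in male mutants, and at 193 to 306 CPM in female controls and 94.8 to 182 in female mutants. Xist and Ddx3y matched the labelled sex in all 20 mice. Female mutant 4 stood apart: 14850 genes had a count there, against 16776 to 17724 in the other 19 mice, and 76 genes had exactly 1 count, against 708 to 859. Of 857 genes averaging 3 to 5 CPM in the other female mutants, 4.32% had at most 3 counts in female mutant 4, against 0% to 0.118% when each other female mutant was treated likewise. Where leaving this library out changed a call or a sign or moved a log2 value by over 1.5 times, both values are given. Male mutant 5 held 958 counts of the liver gene Alb, against 71 to 109 in the other male mutants, and Cyp7a1, another liver gene, had 13 counts in female mutant 4 and 0 in the other 19 mice. Summed markers of adipose tissue reached 8296 counts in female mutant 3, 2108 in female control 3 and 1379 in female control 5, against 6 to 764 in the other 17 mice.

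By position in GRCm38 the 3 Cyp2j genes lay on the minus strand of chromosome 4, Cyp2j13 at 96027534 to 96077546, Cyp2j11 at 96294508 to 96348662 and Cyp2j5 at 96628773 to 96664154. The 4 Cyp2d genes lay on chromosome 15, Cyp2d22 (82370527 to 82380260), Cyp2d10 (82402846 to 82407195) and Cyp2d26 (82790101 to 82794294) on the minus strand and Cyp2d9 (82433437 to 82456845) on the plus strand. Cyp2a4 (26307169 to 26315088) and Cyp2e1 (140763739 to 140774987) were on the plus strand of chromosome 7, and Cyp7b1 (18071950 to 18243338) was on the minus strand of chromosome 3.

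The coding sequences of Cyp2j5, Cyp2j11 and Cyp2j13 shared 76.6% to 77.5% of their bases, and at most 1.34% of the 50-base windows in any of them occurred in another gene. Cyp2d9 and Cyp2d10 shared 92.5% of their coding bases, and 29.04% and 40.5% of their windows occurred elsewhere. Cyp2a4 shared 98.5% with Cyp2a5, and 38.01% of its windows occurred elsewhere. Counts of Cyp2a4, Cyp2d9 and Cyp2d10, and of Cyp2a5 and Cyp2d12 named below, are uncertain to the extent that reads matching several genes were split. The rule for such reads is not given in the sources used here. Cyp7b1 had no shared window.

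Sequences before the start site are shown for Cyp2e1, for 3 relatives on chromosome 15 and for a pair on chromosome 4, because these relatives differed in level or in the direction of their sex difference. They come from RefSeq (GRCm38.p6), where 8 of the 10 genes had an entry and Cyp2d22 and Cyp7b1 had none. The search covered the 250 bases before the start site, and bases that GENCODE places in an exon are left out of the printed runs. The runs are Cyp2j13 at chr4:96077541-96077790 (minus strand), Cyp2j11 at chr4:96348681-96348930 (minus strand), Cyp2d9 at chr15:82452127-82452333 (plus strand), Cyp2d10 at chr15:82407195-82407444 (minus strand), Cyp2d26 at chr15:82794295-82794495 (minus strand) and Cyp2e1 at chr7:140763569-140763738 (plus strand). They read 5′ to 3′ along the gene, and capitals mark matches on either strand to the motifs of STAT5, the androgen receptor, HNF1, HNF4 and the TATA box, which are spelled out after the sequences.
Cyp2j13: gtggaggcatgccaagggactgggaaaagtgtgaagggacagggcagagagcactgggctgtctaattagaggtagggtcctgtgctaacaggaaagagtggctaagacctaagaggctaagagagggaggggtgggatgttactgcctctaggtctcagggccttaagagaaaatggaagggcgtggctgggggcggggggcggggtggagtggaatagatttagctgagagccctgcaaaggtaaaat
Cyp2j11: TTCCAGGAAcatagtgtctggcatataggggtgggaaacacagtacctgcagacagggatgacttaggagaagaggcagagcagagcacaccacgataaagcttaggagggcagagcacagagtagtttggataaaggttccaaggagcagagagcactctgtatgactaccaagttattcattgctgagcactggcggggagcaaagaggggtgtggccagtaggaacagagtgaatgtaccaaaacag
Cyp2d9: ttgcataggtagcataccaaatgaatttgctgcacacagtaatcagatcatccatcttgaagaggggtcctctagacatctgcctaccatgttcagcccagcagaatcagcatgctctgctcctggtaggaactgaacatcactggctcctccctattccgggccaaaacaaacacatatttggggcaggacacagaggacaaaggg
Cyp2d10: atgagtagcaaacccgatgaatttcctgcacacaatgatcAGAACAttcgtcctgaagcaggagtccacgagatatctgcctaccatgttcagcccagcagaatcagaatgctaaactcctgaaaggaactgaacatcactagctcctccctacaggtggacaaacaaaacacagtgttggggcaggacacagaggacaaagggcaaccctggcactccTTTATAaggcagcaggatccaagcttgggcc
Cyp2d26: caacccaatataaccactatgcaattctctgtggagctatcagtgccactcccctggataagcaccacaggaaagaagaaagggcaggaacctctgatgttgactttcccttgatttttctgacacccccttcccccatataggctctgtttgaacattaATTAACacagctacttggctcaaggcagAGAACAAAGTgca
Cyp2e1: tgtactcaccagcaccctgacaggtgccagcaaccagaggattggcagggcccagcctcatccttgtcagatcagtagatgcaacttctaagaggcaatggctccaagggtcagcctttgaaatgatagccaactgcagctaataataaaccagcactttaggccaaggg

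TATAAA, the TATA box, occurred in the searched bases of Cyp2e1, Cyp2a4, Cyp2d9, Cyp2d10, Cyp2d26 and Cyp2j5 on one strand or the other, and in 12.4% of 32851 promoters of the same length. Counted from the start site, the match in Cyp2j5 lay far upstream, at −128 to −123, and the others lay within −31 to −23. The matches of Cyp2e1, Cyp2d9 and Cyp2d26 lay among the bases that GENCODE places in an exon, so the printed runs do not show them. TGTTCT, the core that the androgen receptor is known to bind, found in 16.1% of promoters, was present in Cyp2d10 and Cyp2d26. GTTAAT, an HNF1 sequence in 6.43% of promoters, and CAAAGT, an HNF4 sequence in 12.6%, were both present in Cyp2a4 and Cyp2d26, and in Cyp2d26 CAAAGT overlapped TGTTCT. TTCNNNGAA, the STAT5 motif, found in 7.02% of promoters, was present in Cyp2j11, and Cyp2j13 held none of these letters. Base by base, the searched sequences of Cyp2d9 and Cyp2d10 were 83.6% identical and those of Cyp2j11 and Cyp2j13 56.4% identical.

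Levels of different genes were compared per length, as CPM per kilobase of exon, counting the exons of all GENCODE transcripts of a gene together. For Cyp2d9 that is 2658 bases, against 1712 in its longest coding transcript, so its place in the order depends on this choice. In male controls Cyp2j5, an arachidonic acid epoxygenase, stood at 933 ± 27.2 and Cyp2e1, which oxidises ethanol, acetone and other small molecules, at 773 ± 106 (SD, n = 5), with overlapping ranges. Cyp2a4, a steroid hydroxylase, followed at 399.9 ± 63.5, below both in every mouse. Cyp2j11 (147 ± 1.39) and Cyp7b1 (138 ± 19.6) overlapped, as did Cyp2j13 (99.1 ± 12.1), Cyp2d9 (95.8 ± 14.9) and Cyp2d26 (72.6 ± 7.02) each with its neighbour in this order. Cyp2d22 stood at 5.69 ± 0.770.

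In female controls the order was another one. Cyp2j5 led at 489.8 ± 29.4 CPM per kilobase, followed by Cyp2d26 (187 ± 46.8), Cyp2a4 (152 ± 25.5) and Cyp2j11 (127 ± 10.5), each overlapping its neighbour. Cyp2e1 stood at 37.97 ± 19.4, Cyp2d9 at 12.5 ± 4.12 and Cyp2d22 at 9.94 ± 1.72, the last 2 with overlap. Cyp7b1 (1.85 ± 0.322) and Cyp2j13 (0.203 ± 0.0325) were the lowest of the genes tested. Together the 10 genes made up 0.600% ± 0.0370 of scaled counts in male controls, 0.549% ± 0.0884 in male mutants, 0.215% ± 0.0208 in female controls and 0.183% ± 0.0414 in female mutants.

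**Figure D1:**
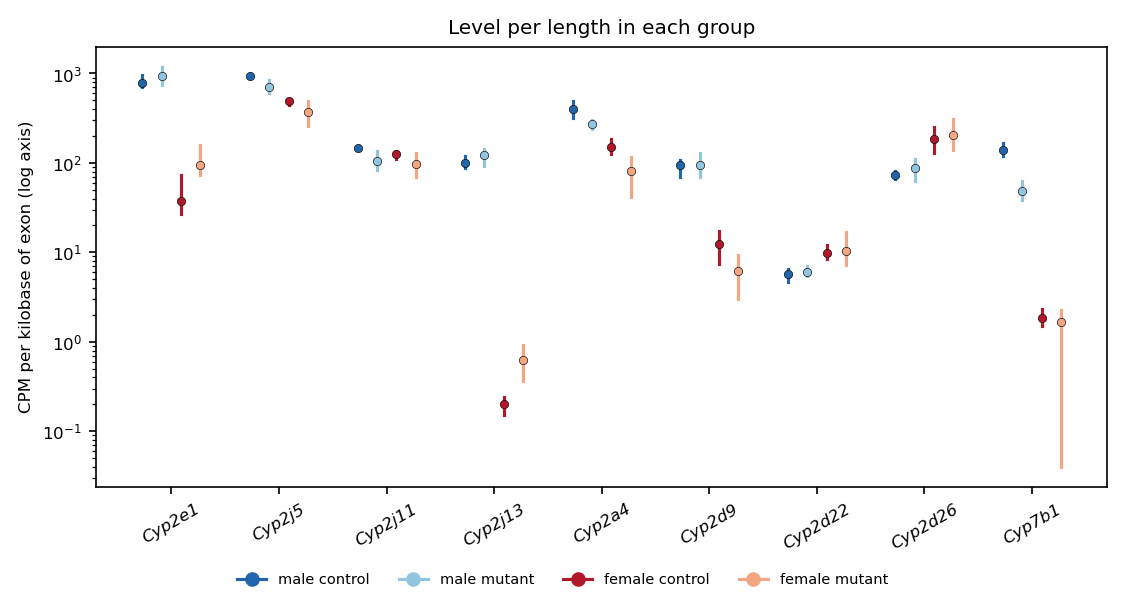
Level per length of the P450 genes in each group, in CPM per kilobase of exon on a log axis, with the mean (point) and range (line) of 5 mice; values in this caption are mean ± SD. Cyp2j5 stood at 933 ± 27.2 in male controls and 489.8 ± 29.4 in female controls, and Cyp2j13 at 99.1 ± 12.1 and 0.203 ± 0.0325.

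Males and females were compared within each genotype. In controls 7 of 8 genes differed by sex at an adjusted p under 0.01 (edgeR's quasi-likelihood test), 5 higher in males and 2 lower, where 17.8% of 14123 genes were called, 8.75% higher and 9.02% lower. In mutants 6 of 8 differed, 5 higher and 1 lower, where 5.42% of 14416 genes were called, 3.59% higher and 1.84% lower. Male and female mice did not overlap for 8 of 8 genes in controls, against 23.9% of all genes, and for 7 of 8 in mutants, against 13.3%. Whole kidneys were measured, so fewer cells of a type and less RNA per cell cannot be told apart. Markers of cell types differed by sex as well. In controls 5 of 15 proximal tubule markers were higher in males and 2 lower. Their sums were 53604 to 66289 CPM in male and 30587 to 41705 CPM in female controls. The median log2 difference over these 15 markers was only 0.13, so the sums follow the most abundant markers more than the list as a whole. Of the markers of thick ascending limb and distal tubule 5 of 6 were lower in males (6711 to 7180.4 against 9205 to 10289 CPM), as were 5 of 5 podocyte markers (245 to 379 against 473 to 613 CPM). Their part in the sex differences of the P450 genes was not tested.

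Cyp2j13, a further Cyp2j enzyme, had the largest gap of the genes tested. Male controls had 425, 482, 413, 451 and 554 CPM and male mutants 437, 578, 588, 608 and 675 CPM. Female controls had 0.923, 0.709, 1.12, 1.01 and 0.988 CPM, from 13 to 19 counts, and female mutants 3.33, 3.42, 4.30, 1.81 and 1.70 CPM, from 21 to 85 counts. Every male was far above every female. The difference was 8.98 on the log2 scale in controls (95% interval 8.72 to 9.24), or 505-fold, with an adjusted p of 2.29e-13, and Cyp2j13 ranked 1 by p and 11 by size. In mutants it was 7.65 (7.03 to 8.28), or 201-fold, with an adjusted p of 2.04e-07.

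Cyp7b1, the oxysterol 7-alpha-hydroxylase of the alternative route to bile acids, came next. Male controls had 259, 286, 325, 265 and 359 CPM and male mutants 93.5, 83.6, 88.3, 119 and 136 CPM. Female controls had 4.29, 3.82, 3.24, 5.06 and 3.65 CPM and female mutants 4.14, 4.98, 4.61, 0.0863 and 4.11 CPM, where the lowest value is 1 count in female mutant 4. All females were thus far below all males. Males were 74.6-fold higher in controls (log2 6.22, 5.92 to 6.52, adjusted p = 2.13e-11) and 28.3-fold higher in mutants (log2 4.82, 3.85 to 5.79, adjusted p = 7.16e-05), or log2 4.59 without female mutant 4.

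Cyp2d9, a testosterone 16-alpha-hydroxylase, was 6.87-fold higher in male controls (log2 2.78 ± 0.15, SE, adjusted p = 5.54e-08) and 15.01-fold higher in male mutants (3.91 ± 0.22, adjusted p = 2.83e-06). Its neighbour Cyp2d10 had 0 to 3 counts in male controls and 0 to 5 in female controls, too few for a comparison at this depth. Cyp2a4 was 2.38-fold higher in male controls (1.25 ± 0.09, adjusted p = 7.49e-07) and 3.34-fold in male mutants (1.74 ± 0.22, adjusted p = 0.000775). Cyp2j5 was 1.93-fold higher in male controls (0.95 ± 0.08, adjusted p = 2.23e-06) and 1.90-fold in male mutants (0.93 ± 0.18, adjusted p = 0.00842). The mutant call of Cyp2j5 was lost with any mutant other than female mutants 3 and 4 left out, at adjusted p up to 0.0510.

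Cyp2d26 and Cyp2d22 were higher in females. Male controls had 119, 117, 129, 146 and 139 CPM of Cyp2d26 and female controls 290.2, 316, 234, 386 and 449 CPM. Male mutants had 113, 175, 176, 132 and 197 CPM and female mutants 325, 285, 251, 410.4 and 556 CPM. All females were above all males of the same genotype, 2.39-fold in controls (log2 male over female −1.26, −1.56 to −0.96, adjusted p = 3.24e-05) and 2.23-fold in mutants (−1.16, −1.56 to −0.75, adjusted p = 0.00257). The mutant call was lost without male mutant 4, male mutant 5, female mutant 1 or female mutant 5 (adjusted p up to 0.0206). Cyp2d22 ranged from 18.4 to 25.7 CPM in male and 32.7 to 47.6 CPM in female controls (−0.81 ± 0.14, SE, adjusted p = 0.00109). In mutants its ranges were 21.3 to 27.3 and 28.1 to 65.8 CPM, and the difference of −0.69 ± 0.17 missed the threshold (adjusted p = 0.0215). Cyp2j11 was not called by sex, at 0.23 (0.07 to 0.39, adjusted p = 0.0301) in controls and 0.12 (−0.26 to 0.49, adjusted p = 0.678) in mutants, or 0.02 without female mutant 3 and 0.26 (adjusted p = 0.137) without female mutant 4.

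**Figure D2:**
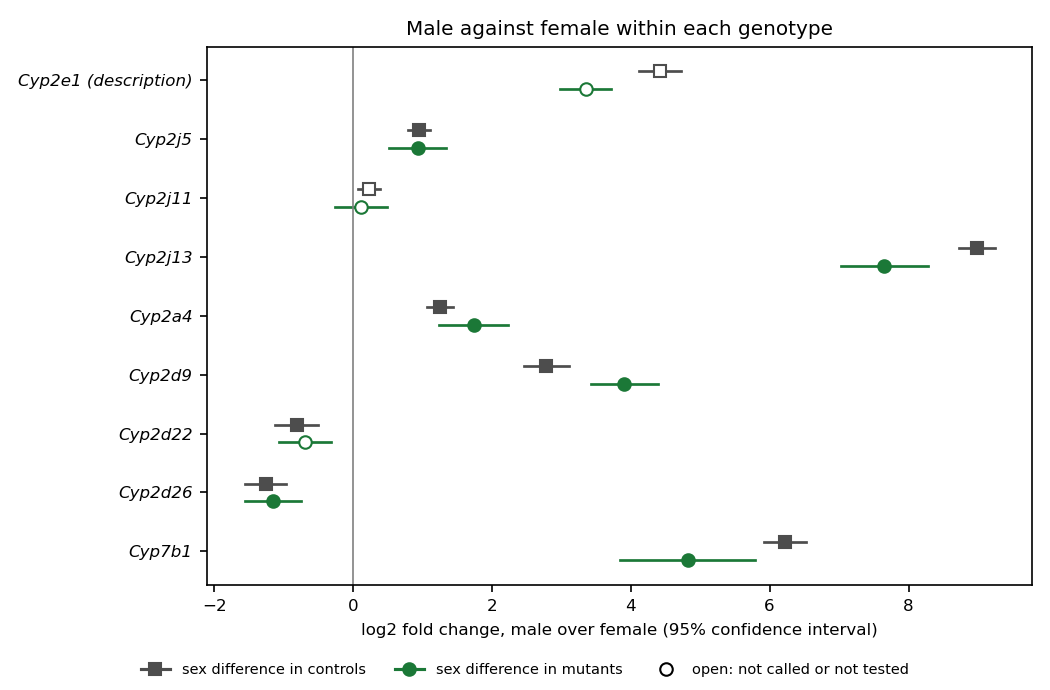
Log2 fold change of males over females in controls and in mutants for 9 P450 genes, with 95% intervals; filled symbols passed an adjusted p of 0.01. Cyp2j13 stood at 8.98 and 7.65, Cyp2d26 at −1.26 and −1.16, and Cyp2e1 is shown as a description.

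Cyp2e1, as a description, had the following levels. Male controls had 1547, 1539, 1553, 1626 and 2073 CPM and male mutants 1591, 2345, 1929, 1762 and 2547 CPM. Female controls had 71.96, 61.9, 61.98, 57.7 and 156 CPM and female mutants 184, 157, 160.4, 181 and 342 CPM. Every female mutant was above every female control, while the males of both genotypes overlapped. The fitted log2 change with loss of Pkd2 was 1.39 ± 0.09 (SE) in females, or 2.63-fold, and 0.28 ± 0.10 in males, or 1.22-fold. The gap between the sexes was 21.5-fold in controls and 10.2-fold in mutants.

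Within litters A, B and C the log2 change of Cyp2e1 was 1.35, 1.45 and 1.13 in females and 0.32, 0.18 and 0.30 in males. Litter C in both sexes and litter A in females set 1 mutant against 1 control, and litter B in males 2 mutants against 1 control. With each mouse left out the change of Cyp2e1 ran from 1.35 to 1.46 in females. In males it ran from 0.15 without male mutant 2 to 0.37 without male mutant 1, and it was 0.28 without male mutant 5, the mouse with more counts of Alb. The mouse of litter C, which among male mutants is male mutant 5, had the highest Cyp2e1 of its group in 4 of 4 groups, a pattern held by 0.893% of 13781 genes. For Cyp2d9 and Cyp2d26 this was so in 3 groups each, as for 4.86% of genes, and for Cyp2a4 in 0, as for 38.5%. Whether the counts of liver genes in male mutant 5 have a part in its level of Cyp2e1 was not tested beyond leaving it out.

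**Figure D3:**
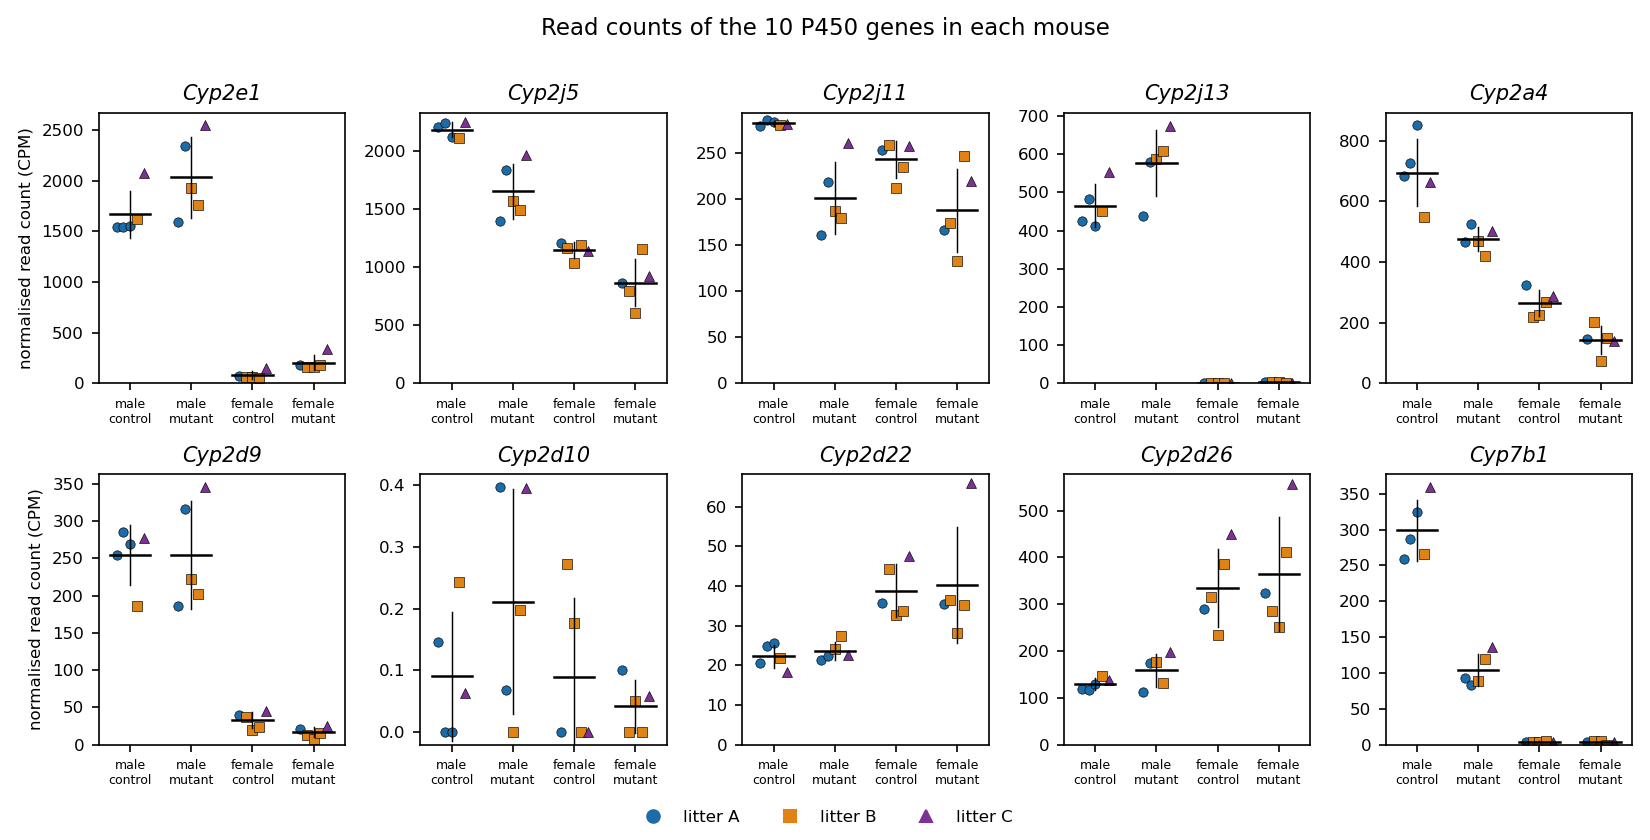
CPM of the P450 genes in each of the 20 mice by group, with litter marked, and the mean and SD of 5 mice. Cyp7b1 of every male mutant lay below that of every male control, and Cyp2e1 was highest in the mouse of litter C in each of the 4 groups.

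Which of the genes changed with loss of Pkd2 was tested within each sex. In males 4 of 8 fell and 0 rose, where 8.46% of 14010 genes were called, 3.2% lower and 5.25% higher. Cyp7b1 fell by 1.55 on the log2 scale (interval of the change −1.78 to −1.32), to 2.93-fold lower, with an adjusted p of 2.87e-05 and rank 3 by p. With each male left out in turn it was called every time, at adjusted p up to 0.000413. Within litters A, B and C its change was −1.71, −1.37 and −1.40, the last from 1 mutant and 1 control.

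Cyp2j5 went from 2207, 2239.9, 2119, 2118 and 2249 CPM in male controls to 1401, 1840.3, 1568, 1497 and 1968 CPM in male mutants. Cyp2j11 went from 279, 286, 284, 280.2 and 281 CPM to 160.2, 218, 187, 179 and 260.4 CPM. Cyp2a4 went from 685, 725, 853, 548 and 664 CPM to 465, 525, 468, 421 and 503 CPM. For these 3 genes and Cyp7b1 every male mutant was below every male control, which held for 6.56% of all genes. The changes were −0.40 ± 0.09 (log2, SE, adjusted p = 0.00951) for Cyp2j5, −0.50 ± 0.10 (adjusted p = 0.00544) for Cyp2j11 and −0.49 ± 0.09 (adjusted p = 0.00357) for Cyp2a4, or 1.32-, 1.41- and 1.40-fold lower.

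Those 3 calls lay near the threshold. Cyp2j5 lost its call with any male other than male mutant 2 left out (adjusted p up to 0.0660). Cyp2j11 lost it without male control 1, 2, 3 or 4 or male mutant 3 or 4 (up to 0.0453), and Cyp2a4 without male control 4 or 5 or male mutant 5 (up to 0.0133). Male control 4 was the only male control of litter B, and male control 5 and male mutant 5 were the only males of litter C. With litter as a covariate, leaving out any of these mice took its whole litter out of the comparison. Within litters A, B and C the change was −0.45, −0.47 and −0.19 for Cyp2j5, −0.60, −0.61 and −0.11 for Cyp2j11 and −0.60, −0.30 and −0.40 for Cyp2a4. All 9 values were below 0, those of litter C from 1 mutant and 1 control. With all 20 mice in 1 fit none of the 3 was called, at adjusted p of 0.0509, 0.0165 and 0.0730.

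The other 4 genes tested in males were not called. Cyp2j13 was at 0.27 (0.08 to 0.46, adjusted p = 0.0480) and was called without male mutant 1 (0.36, adjusted p = 0.00492). Cyp2d26 was at 0.24 (−0.02 to 0.51, adjusted p = 0.188), or 0.11 without male mutant 2, Cyp2d22 at 0.06 (−0.16 to 0.29, adjusted p = 0.702) and Cyp2d9 at 0.06 (−0.22 to 0.34, adjusted p = 0.785). Cyp2d9 overlapped between male controls, at 254, 285, 269.6, 187 and 278 CPM, and male mutants, at 186, 316, 223, 202 and 346 CPM.

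Markers of cell types moved with genotype as well, and the first counts are those of males. Over all genes 3.2% were called lower and 5.25% higher in males, and 0.637% were called in females. Of the proximal tubule markers 3 of 15 fell and 0 rose, with a median change of −0.28, against −0.17 for the 8 P450 genes. Their summed level was 43260.3 to 60979 CPM in male mutants and 15113 to 32939 CPM in female mutants, beside the values of the controls given above. As many as 6 of 6 tubule injury markers rose in males (822 to 1037 CPM in controls, 1813 to 9422 in mutants), and 1 of 6 in females (1894 to 2313 and 2717 to 10205 CPM). Of fibroblast markers 4 of 6 rose in males (198 to 262 and 371 to 1113 CPM), and of macrophage and lymphocyte markers 3 of 7 (192 to 203 and 293 to 722 CPM). Of the markers of thick ascending limb and distal tubule 4 of 6 fell, to 4526 to 5315 CPM in male mutants. No marker of these lists was at 0 in every mouse. In females the sums of controls and mutants were 9205 to 10289 and 4933 to 6869 CPM for thick ascending limb and distal tubule (1 of 6 fell, Slc12a3), 473 to 613 and 345 to 443 CPM for podocytes (0 of 5), 269.7 to 419 and 441 to 1469.9 CPM for fibroblasts (0 of 6 rose) and 246 to 285 and 271 to 843 CPM for macrophages and lymphocytes (0 of 7). The first 3 of these sums did not overlap between female controls and mutants. Of the 5 blood markers the 4 globin genes were at 0 in every mouse, and the other, Alas2, fell in males (−2.19, adjusted p = 0.000702) and females (−2.11, adjusted p = 0.00813). The part of these cell types in the P450 changes was not tested.

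In females 0 of 8 genes were called by edgeR's quasi-likelihood test, where 0.637% of 14439 genes were. At an unadjusted p under 0.05 there were 5, against 20.6% of all genes, and DESeq2's Wald test called 3 (Cyp2j13, Cyp2a4 and Cyp2d9), against 6.43% of all genes. For Cyp2j13 all female mutants were above all female controls, as for 3.73% of genes, with a change of 1.62 ± 0.35 (SE, adjusted p = 0.0254). Cyp2a4 was at 325, 218, 226, 269 and 287 CPM in female controls and 147, 203, 73.1, 149 and 139 CPM in female mutants, all of them lower, as for 3.33% of genes (−0.87 ± 0.22, adjusted p = 0.0442). Cyp2d9 was at 39.2, 37.04, 19.6, 24.01 and 45.9 CPM in female controls and 21.4, 12.9, 8.05, 15.6 and 25.2 CPM in female mutants, with overlap (−1.02 ± 0.20, adjusted p = 0.0194).

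Cyp2j5 and Cyp2j11 were at −0.38 (−0.73 to −0.04, adjusted p = 0.189) and −0.36 (−0.68 to −0.04, adjusted p = 0.187) in females. Female controls had 1207, 1167, 1035, 1195 and 1138 CPM of Cyp2j5 and female mutants 865, 796, 603, 1155 and 927 CPM, so that female mutant 4 lay among the controls and the other female mutants below them. Cyp2j11 had 253, 258, 211, 234 and 258 CPM in female controls and 166, 173, 133, 246 and 219 CPM in female mutants, with female mutants 4 and 5 among the controls. Cyp7b1 was at −0.12 (−1.33 to 1.09, adjusted p = 0.943), and at 0.19 (adjusted p = 0.561) without female mutant 4. Cyp2d22 was at 0.02 (−0.27 to 0.31, adjusted p = 0.956) and Cyp2d26 at 0.12 (−0.23 to 0.48, adjusted p = 0.737), or 0.02 without female mutant 4. Leaving out female mutant 3, female control 3 or female control 5, the mice with more counts of adipose markers, changed no call in females, while the value of Cyp2d22 was below 0 without either of these controls.

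Without female mutant 4, Cyp2j13 (1.78, adjusted p = 0.00358) and Cyp2d9 (−1.11, adjusted p = 0.00770) passed the threshold. Cyp2j5 (−0.53, adjusted p = 0.0173), Cyp2j11 (−0.50, adjusted p = 0.0155) and Cyp2a4 (−0.91, adjusted p = 0.0311) did not. Over all genes, too, more were called in females without this mouse, with the numbers given at the end.

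**Figure D4:**
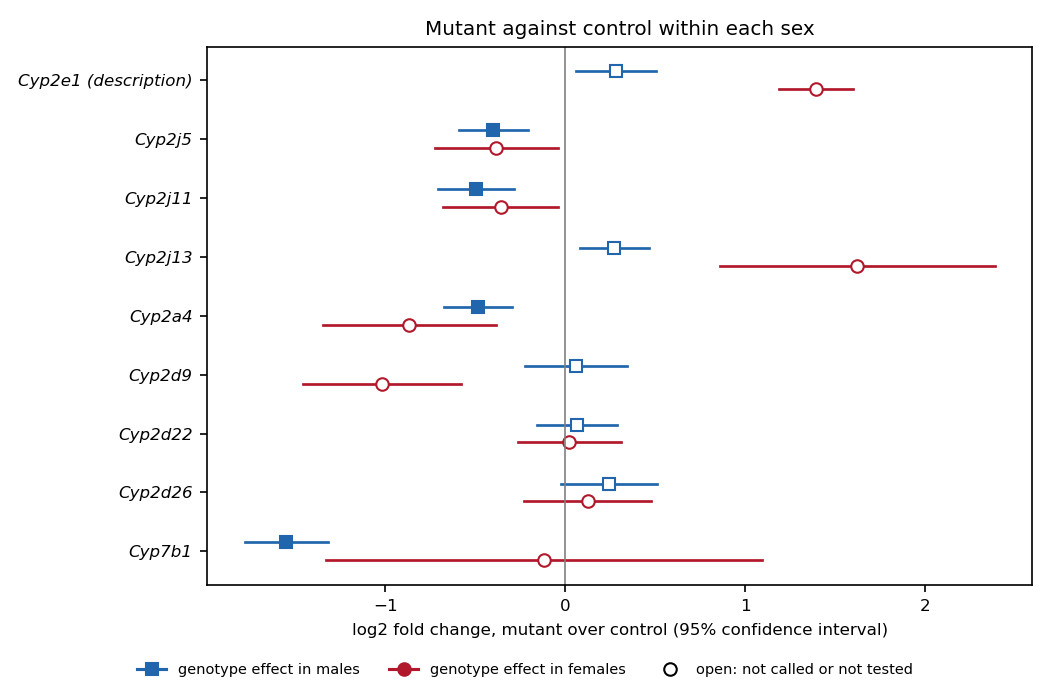
Log2 fold change of mutants over controls in males and in females for 9 P450 genes, with 95% intervals; filled symbols passed an adjusted p of 0.01. Cyp7b1 stood at −1.55 in males and −0.12 in females, the latter with an interval of −1.33 to 1.09, and Cyp2e1 is shown as a description.

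With both sexes in 1 fit, Cyp2j5 (−0.39, adjusted p = 0.00479), Cyp2j11 (−0.43, adjusted p = 0.00277), Cyp2a4 (−0.69, adjusted p = 0.00115) and Cyp7b1 (−1.01, adjusted p = 0.00834) fell in mutants. These were 4 of 8 genes, and 0 rose, where 15.9% of 14191 genes were called, 5.86% lower and 10% higher. The call of Cyp7b1 was lost with any male or with female control 2 or 4 left out (adjusted p up to 0.0407). That of Cyp2j5 was lost without male control 4, female control 1, 2 or 4 or female mutant 1 or 2 (up to 0.0157), and that of Cyp2j11 without male control 4 (0.0118). Cyp2j13 was at 0.64 ± 0.18 (SE, adjusted p = 0.0125) and passed without male mutant 1 (adjusted p = 0.00928). By DESeq2's Wald test Cyp2j13 was called (adjusted p = 0.00171) and Cyp7b1 was not (adjusted p = 0.0888).

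Whether the response differed between the sexes was tested as a sex-by-genotype term, the change in males minus that in females. It was called for 0 of 8 genes and for 0% of 14820 genes in all by edgeR's quasi-likelihood test. At an unadjusted p under 0.05 there were 3 of the P450 genes, against 4.17%, and DESeq2's Wald test called 1, Cyp2j13, against 0.121%. The term was −1.37 (−1.94 to −0.80, adjusted p = 0.247) for Cyp2j13, −1.43 (−2.35 to −0.52, adjusted p = 0.859) for Cyp7b1 and 1.11 (0.55 to 1.66, adjusted p = 0.362) for Cyp2d9. Without female mutant 4 the term for Cyp7b1 was −1.71 and passed (adjusted p = 0.000798), and that for Cyp2j13 was −1.51 (adjusted p = 0.0200). The share of all genes called without that mouse is not given here, so this call of Cyp7b1 has no background beside it. The terms of Cyp2d26 (0.15), Cyp2j11 (−0.11) and Cyp2j5 (0.01) were 0.26, 0.04 and 0.16 without that mouse and were not called. For Cyp2e1, chosen for this difference, the term was −1.08, and −1.21 to −1.03 with each mouse left out.

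In mutants, levels were also related to KBW within sex, a measure that the choice of Cyp2e1 did not use. By edgeR's quasi-likelihood test 0 of 9 genes and 0% of 14416 genes had a slope that passed. At an unadjusted p under 0.05 there were 3 of the P450 genes, against 22.3%, and DESeq2's Wald test called 0, against 4%. In simulated counts with a true slope of 1 on the log2 scale, edgeR's test called 0 of 200 changed genes. Its 0 calls in these mice therefore cannot show that a slope is absent. Per percentage point of KBW the slope was −0.88 ± 0.34 (log2, SE, adjusted p = 0.153) for Cyp2d26, −0.78 ± 0.25 (adjusted p = 0.103) for Cyp2j11 and −0.68 ± 0.25 (adjusted p = 0.137) for Cyp2j5. It was −0.71 ± 0.37 (adjusted p = 0.278) for Cyp2e1. Without female mutant 4, the mutant with the smallest kidneys for its weight, the slopes were −0.94 for Cyp2d26, −0.64 for Cyp2j11, −0.51 for Cyp2j5 and −0.94 for Cyp2e1, and those of Cyp7b1 and Cyp2j13 were 0.06 and −0.04. The slope of Cyp2e1 was −0.42 without female mutant 5. With all 10 mutants slopes were below 0 for 7 of the 9 genes, and those of Cyp2j13 (0.18, adjusted p = 0.830) and Cyp7b1 (0.66, adjusted p = 0.610) were above 0, the former only while female mutants 3 and 4 were both included.

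**Figure D5:**
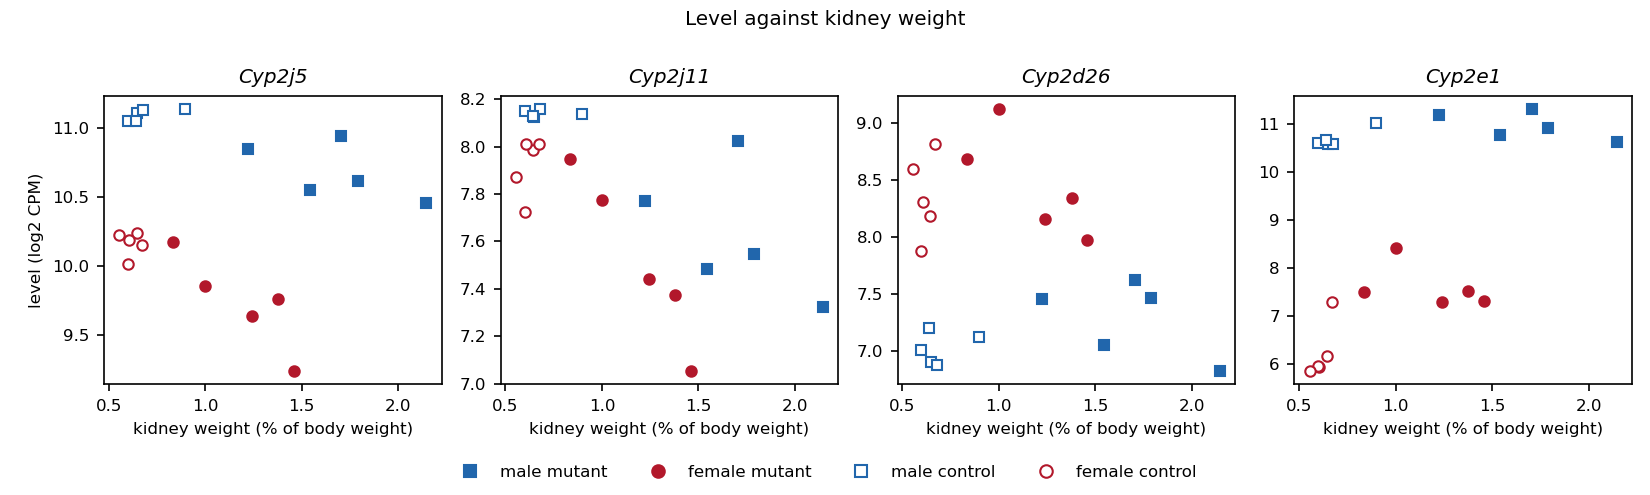
Level in log2 CPM against kidney weight as a percent of body weight, 1 point per mouse, mutants filled and controls open, for Cyp2j5, Cyp2j11, Cyp2d26 and Cyp2e1. Mutants reached 2.15% in males and 1.46% in females, and no slope passed an adjusted p of 0.01.

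Within groups some of the genes varied together. After each group's mean was taken away, Cyp2j5 and Cyp2j11 had a Pearson r of 0.94 over 20 mice (0.92 without female mutant 4), and Cyp2e1 and Cyp2d26 one of 0.75. Cyp2j13 and Cyp2d22 had one of −0.59. The mice share litters and the values of a mouse share its library, so these are descriptions.

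Over all 20 mice, with the group differences left in, the genes most like Cyp2e1 among 13780 were Cyp4b1 (0.987), Azgp1 (0.984), Tmigd1 (0.980), Cyp4a12a (0.978) and Osbp2 (0.978), by Pearson r of log2 CPM. The closest gene was Slco1a1 (0.992) for Cyp2j13, Lap3 (0.990) for Cyp2d9, Acss2 (0.984) for Cyp2j5, Slc22a12 (0.978) for Cyp2a4 and Tc2n (0.976) for Cyp7b1. It was Bhmt (0.955) for Cyp2d26, Hgd (0.943) for Cyp2j11 and Glul (0.924) for Cyp2d22.

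Of 42 other Cyp2 genes in the table, 12 were tested in males, where 3 fell and 0 rose. Over all genes 3.2% fell and 5.25% rose in males, and 5.86% fell and 10% rose in the joint fit. In controls 8.75% were higher in males and 9.02% lower, and by genotype 0.637% were called in females. These shares stand beside the counts of this list and the lists that follow, as a description. In males Cyp2d12 fell by 1.82 (adjusted p = 0.000983), Cyp2j9 by 0.66 (adjusted p = 0.00868) and Cyp2j6 by 0.37 (adjusted p = 0.00395). Cyp2d12, at 175 ± 24.9 CPM in male controls and 49.2 ± 19.01 in male mutants, shared 92.1% of its coding bases with Cyp2d9, which was not called. In females 0 of 12 were called. In the joint fit Cyp2a5, a coumarin 7-hydroxylase, rose by 0.75 (adjusted p = 0.00552), while its near-identical relative Cyp2a4 fell. Of the 50-base windows of Cyp2a5 and Cyp2d12, 40.84% and 17.88% occurred in another gene, so their counts carry the uncertainty given above. Cyp2a5 was the 1 of 12 that rose, and 3 fell, Cyp2d12 (−1.76, adjusted p = 7.68e-05), Cyp2j6 (−0.37, adjusted p = 0.000394) and Cyp2s1 (−0.33, adjusted p = 0.00451). In controls 3 of 12 were higher in males and 2 lower. Higher were Cyp2a5 (1.95, adjusted p = 6.43e-06), Cyp2f2 (1.14, adjusted p = 8.57e-05) and Cyp2j9 (0.66, adjusted p = 0.00072). Lower were Cyp2c44, an epoxygenase (−0.98, adjusted p = 7.05e-05), and Cyp2s1 (−0.58, adjusted p = 0.00041).

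Among genes that serve these enzymes, Por, the reductase that supplies electrons to microsomal P450s, was the 1 of 11 redox partners and heme genes that fell in males (−0.42, adjusted p = 0.00613), and 0 rose. In the joint fit Por (−0.45, adjusted p = 0.000819) and Fdxr, the mitochondrial counterpart (−0.35, adjusted p = 0.00535), fell. By sex 4 of 11 were higher in male controls, among them Cyb5a (1.36) and Cyb5r3 (0.80), of the cytochrome b5 system, and 1 was lower. From a list of epoxygenase and epoxide hydrolase genes that also held Pla2g4a and Gpx4, 8 were tested. Of these, 2 were higher in male controls and 2 lower, and Ephx2, the soluble epoxide hydrolase, was higher (1.58, adjusted p = 1.25e-07). In males 2 of the 8 fell with loss of Pkd2, Cyp2j6 and Cyp2j9.

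Of 14 oxysterol and bile acid genes tested, Ch25h, which makes 25-hydroxycholesterol, rose in males by 1.62 (adjusted p = 0.00613), from 1.19 ± 0.401 to 3.59 ± 1.52 CPM, and 0 fell. In the joint fit Ch25h rose (1.52, adjusted p = 9.05e-05) while Nr1h3, the oxysterol receptor LXR-alpha (−0.38, adjusted p = 0.00115), and Cyp46a1, a cholesterol 24-hydroxylase (−0.77, adjusted p = 0.00471), fell. In male controls 4 of the 14 were higher than in female controls, led by Amacr (1.97), and 1 was lower.

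Of 19 nuclear receptors and other factors 0 were called in males and 0 in females, and in the joint fit Esr1 (−0.54, adjusted p = 0.000579) and Cebpa (−0.29, adjusted p = 0.00775) fell. These are RNA levels, and the study's Western blots of P125 kidneys gave more ESR1 protein in mutants of either sex. In controls 4 of the 19 were higher in males and 1 lower, among them Rxra (0.46) and Cebpa (−0.65). Of 10 alcohol, ketone and glutathione genes 3 fell in males, Gsta2 (−1.22), Gstm1 (−0.51) and Gclm (−0.39). Adh1, the alcohol dehydrogenase, was higher in male than in female controls (2.14, adjusted p = 1.09e-09). Of 10 P450 genes of other families, Cyp51 (−0.74) of cholesterol synthesis and Cyp24a1 (−0.86), which inactivates vitamin D, fell in males and Cyp1b1 rose (0.63).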

How the data were processed

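RNA from whole kidneys of 20 mice was sequenced. Per the submitters' processing notes and methods, trimming was done by fastp 0.23.2, alignment (mm10) by STAR 2.7.10b, and the authors deposited raw counts per gene for 24411 genes. The counting tool, its annotation and strand setting are not given in the sources used here. Depth was 11307741 to 19324073 counts per mouse.

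From these counts, groups were taken from the labels and each comparison was fitted on all genes with edgeR 4.0.16 (R 4.3.3): filterByExpr, TMM scaling, the quasi-likelihood test (glmQLFit, glmQLFTest) and Benjamini-Hochberg adjustment, called at an adjusted p under 0.01. Litter was a covariate within a sex or genotype, sex and litter together in the joint fit and the sex-by-genotype term, and sex in the KBW slope. No covariate stood for individual replicate numbers. Intervals are 95%. CPM were scaled by TMM, and log2 CPM used a prior count of 2. DESeq2 1.42.0 (Wald test) was one alternative. Others were scaling by DESeq2 size factors, dropping the low-count filter or asking for 10 counts per mouse, dropping litter (or, for KBW, adding it), 1 fit for all mice, and leaving out each mouse. Scripts were tested on simulated data. Each mouse is a separate animal.

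The 10 genes and all lists were chosen with earlier results of these data known. Of other Cyp2 genes the 3 with the largest called change in a comparison are named (mean of at least 1 CPM), and of each list up to 3 called genes by p. Gene models are GENCODE M21 (GRCm38), promoters are from RefSeq, and sequence comparisons used Biopython 1.88.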

Additional observations from a re-analysis of the deposited data

Results flagged for a closer look

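In 5 of 36 sets of a gene and a group of 5 mice, 1 mouse lay far from the other 4 by Dixon's criterion (a gap over 0.71 of the group's range). Chance gives this in about 1 of 20 independent sets. These sets share mice and litters, and Cyp2e1 was chosen by its counts, so their number is a description and no test against that share. Cyp2e1 was at 2073 CPM in male control 5, with the other male controls at 1539 to 1626 CPM. It was at 156 CPM in female control 5, with the other female controls at 57.7 to 71.96 CPM, and at 342 CPM in female mutant 5, with the other female mutants at 157 to 184 CPM. These 3 mice are from litter C. Cyp2d9 was at 187 CPM in male control 4, with the other male controls at 254 to 285 CPM. Cyp7b1 was at 0.0863 CPM, from 1 count, in female mutant 4, with the other female mutants at 4.11 to 4.98 CPM.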

How the results depend on the processing

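Of the log2 values of the P450 genes under alternatives that kept every mouse, 322 kept their direction and their side of the threshold, 14 newly passed it, 6 no longer passed and 4 changed sign; with 1 mouse left out these numbers were 730, 5, 49 and 26. In males 4 genes were called, and 1 (Cyp7b1) with all 20 mice in 1 fit, which shares the spread of both sexes. In females 0 were called, but 3 by DESeq2, 1 (Cyp2d9) with no filter on low counts and 3 with all 20 mice in 1 fit. For the sex-by-genotype term 0 were called, and 1 (Cyp2j13) by DESeq2. The cause was not tested.

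With each mouse left out, the genes called numbered 1 (without male control 4) to 4 in males, 0 to 2 (without female mutant 4) in females, 1 (without male control 4) to 4 in the joint fit and 0 to 1 (without female mutant 4) for the sex-by-genotype term. Litter is a term in these fits. Leaving out the only control or only mutant of a sex in a litter thus also removes the other mice of that sex and litter from the estimate. Male control 4 was such a mouse, in litter B. Small log2 values changed sign. For Cyp2d9 in males the value was −0.00794 without the litter term and −0.0561 to 0.227 with each mouse left out. For Cyp2d22 in females it was −0.000368 with no filter and −0.0927 to 0.119 with each mouse left out, −0.0156 to 0.0905 in the joint fit and −0.0533 to 0.191 for the sex-by-genotype term. For Cyp2j5 the sex-by-genotype term was −0.00896 with DESeq2 size factors, −0.00896 by DESeq2 and −0.0993 to 0.164 with each mouse left out, and for Cyp2j11 it was −0.269 to 0.0389. Leaving out each mouse gave −0.315 to 0.19 for Cyp7b1 in females, and KBW slopes of −0.0645 to 0.966 for Cyp2j13 and −0.519 to 0.00303 for Cyp2a4.

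Over all genes, calls in females numbered 92, against 928 by DESeq2, 230 with no filter, 172 without the litter term and 856 in 1 fit; in males 1185, against 2001 by DESeq2; and between mutant sexes 782, against 1959 by DESeq2 and 2353 in 1 fit. The sex-by-genotype term gave 0 against 18 by DESeq2, and the KBW slope 0 against 577 by DESeq2 and 10 with litter added. With each mouse left out these counts ran from 3 (without female control 2) to 866 (without female mutant 4) in females and from 187 (without male control 4) to 1863 (without male mutant 2) in males, from 1223 (without male control 4) to 2659 (without male control 3) between control sexes, from 246 (without female mutant 1) to 1330 (without female mutant 4) between mutant sexes and from 1656 (without male control 4) to 2994 (without female mutant 4) in the joint fit, so the shares of all genes called given beside the P450 counts move with them. No paired analysis was possible because the labels number no replicates, and litter is already a term. At 13 to 19 counts in female controls, Cyp2j13 is limited by depth, as is Cyp2d10.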
